A study of Mus musculus with 10 samples.

Results

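The chains of the IL-3, GM-CSF, IL-5 and IL-9 receptors were read by symbol from a table of raw RNA-seq counts of mast cells sorted from the mouse lower airway. The set holds 8 of the 22815 gene symbols in the table, and its rule names them by symbol, with no level or test in it. Il3ra, Csf2ra and Il5ra encode the ligand-binding α chains of the IL-3, GM-CSF and IL-5 receptors, and Csf2rb and Csf2rb2 encode their β chains. Il9r and Il21r encode the ligand-binding chains of the IL-9 and IL-21 receptors, and Il2ra encodes the α chain of the high-affinity IL-2 receptor.

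The study compared 2 sorted mast cell populations, which the labels call B7hi and B7low, after a challenge with an allergen or with saline. Wild-type C57BL/6 mice of 5 to 7 weeks inhaled 20 µL of liquid through the nose under anaesthesia, 2 times a week for 3 weeks. The groups were B7hi HDM (n = 3), B7low HDM (n = 3), B7hi saline (n = 2) and B7low saline (n = 2), where HDM stands for house dust mite extract. Each HDM dose held 3 µg of extract, and the saline mice had the liquid alone. The labels spell out neither B7 nor whether the libraries of a group came from separate mice, so the spread between libraries may in part be technical. In bulk libraries such as these, fewer cells of a type and less RNA per cell cannot be told apart.

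IL-3, GM-CSF and IL-5 each bind their own α chain, which then pairs with the common β chain, Csf2rb. The β chain carries the kinase JAK2 and passes the signal mainly to STAT5. Mice have another β chain, Csf2rb2, a close relative that pairs with Il3ra and serves IL-3 alone. IL-9, IL-21 and IL-2 receptors use the common γ chain, Il2rg, and signal through JAK1 and JAK3. IL-3 and IL-9 are known as growth factors of mouse mast cells, and IL-5 is best known for its action on eosinophils.

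Total counts ran from 525983 to 1725818 per library. Of these, 19.7% to 28.9% fell on the ribosomal RNA entry Rn45s. Its share was 27.2% and 28.9% in B7low saline, against 19.7% and 21.6% in B7hi saline. The HDM groups overlapped, at 22.7%, 26.3% and 23.6% in B7hi and 24.1%, 21.9% and 24.9% in B7low. Levels are given in CPM, counts scaled to a common library size after TMM normalisation, as mean ± SD over libraries. Where a library has 0 counts of a gene, the level could be as high as 1.57 CPM in the deepest library and 5.87 CPM in the shallowest (3 counts, counting error only). B7hi HDM 2 and B7low saline 2 stood apart, with 12133 and 6956 CPM of the nuclear RNA Kcnq1ot1, against 806 to 2794 CPM in the other 8 libraries, and they were the least deep of all 10 libraries. Results that rest on them are therefore also given without them. All 9 mast cell markers looked for had counts in every library. Their summed level was 18891 to 31012 CPM in B7hi HDM, 53761 to 76836 CPM in B7low HDM, 13690 to 16436 CPM in B7hi saline and 60409 to 105906 CPM in B7low saline, so every B7hi sum lay below every B7low sum. Cpa3, Tpsb2, Cma1, Mcpt4 and Gata2 each lay apart in this way. Hdc, Fcer1a, Kit and Ms4a2 overlapped between the populations. Kit had 2693 to 5488 CPM in B7hi and 3830 to 5642 CPM in B7low. Ms4a2 had 766 to 926 CPM in B7hi and 640 to 1130 CPM in B7low.

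The β chain genes lie side by side on chromosome 15 of GRCm38, with 20.0 kb between them. Csf2rb2 runs on the minus strand (chr15:78282507-78305721) and Csf2rb on the plus strand (chr15:78325752-78353847). Their coding sequences, of 2637 and 2691 nt in that order, were identical at 95.2% of 2631 aligned positions. Reads came in pairs of 25 nt each, and 45.9% of the distinct 25-nt words in the Csf2rb2 coding sequence also occur in that of Csf2rb. No other pair of the 8 genes shared a 25-nt word in its annotated transcripts. The 50-nt coding window without a gap in which the pair differs most is shown because reads from it can be told apart; capitals mark its 12 differing bases.
Csf2rb2, coding positions 312 to 361: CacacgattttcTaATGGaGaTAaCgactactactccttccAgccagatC
Csf2rb, coding positions 309 to 358: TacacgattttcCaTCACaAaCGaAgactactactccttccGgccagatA
The longest run that the 2 coding sequences share, of 242 nt, is shown because reads inside it cannot be assigned by their own sequence. The other read of a pair may lie outside the run.
Csf2rb2 and Csf2rb, coding positions 2083 to 2324 of both: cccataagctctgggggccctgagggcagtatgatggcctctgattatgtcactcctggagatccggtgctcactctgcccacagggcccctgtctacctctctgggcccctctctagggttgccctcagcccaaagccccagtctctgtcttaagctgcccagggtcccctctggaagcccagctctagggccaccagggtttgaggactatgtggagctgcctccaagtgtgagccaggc
Typical coding windows are closer to the shared run than to the divergent window, with a median of 1 difference per 50 nt and no difference in 687 of 2386 windows. How reads that match both genes were counted is not given in the sources used here, so the level of each β chain is uncertain where such reads were split, dropped or counted for both.

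Per length of transcript, the β chains stood far above all ligand-binding chains. Csf2rb had 135 ± 52.3 CPM per kb in B7hi HDM, 108 ± 5.95 in B7low HDM, 103 ± 33.1 in B7hi saline and 109 ± 9.84 in B7low saline. Csf2rb2 had 103 ± 22.8 CPM per kb in B7hi HDM, 52.5 ± 9.80 in B7low HDM, 74.8 ± 25 in B7hi saline and 58.4 ± 1.33 in B7low saline. The ranges of the β chains overlapped each other in both B7hi groups and lay apart in both B7low groups. Among the other 6 genes, the highest library reached 24.8 CPM per kb, for Il5ra in B7low saline, and Il2ra had the lowest mean in every group. Between these ends, Il9r came next after the β chains in 3 groups and Il5ra did so in B7low saline, while neighbours among Il21r, Csf2ra, Il3ra and Il5ra mostly overlapped. The order depends on the transcript length: over the union of all annotated exons, Csf2rb2 came before Csf2rb in both B7hi groups, and Il9r came after at least 1 of the other 5 genes in every group.

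**Figure D1:**
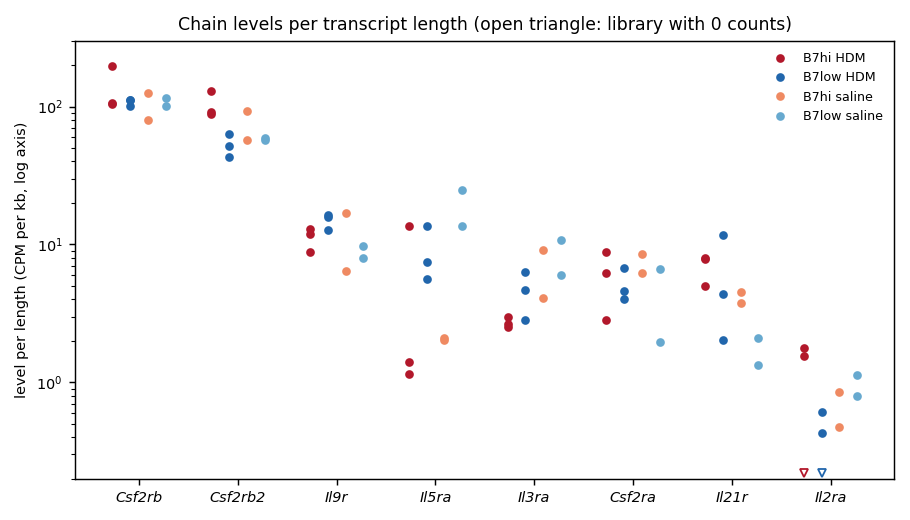
Level per length (CPM per kb, log axis) of the 8 receptor chain genes; each point is 1 library, coloured by group, and open triangles mark libraries with 0 counts. Csf2rb and Csf2rb2 lie above 40 CPM per kb in all 10 libraries, and the other 6 genes lie below 25 CPM per kb.

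The sum of both β chains exceeded that of the 3 α chains in every library. The ratio of β to α, in CPM per kb, was 7.73 to 45.2 in B7hi HDM, 6.77 to 13.2 in B7low HDM, 11.1 in both B7hi saline libraries and 3.77 to 8.06 in B7low saline. B7hi HDM 1 held the highest ratio and B7hi HDM 2 the lowest of its group, so the HDM ranges overlapped, while the saline ranges did not.

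Csf2rb, the β chain shared by IL-3, GM-CSF and IL-5, had the highest mean CPM of the set in every group and showed no call in any comparison. Its level was 958, 517 and 510 CPM in B7hi HDM, 549, 498 and 547 CPM in B7low HDM, 619 and 389 CPM in B7hi saline, and 567 and 498 CPM in B7low saline. B7hi HDM 1 alone lay above all other libraries, and the groups overlapped. Averaged over both challenges, B7hi differed from B7low by a log2 fold change of 0.12 ± 0.21 (SE, 95% interval -0.29 to 0.53), with an adjusted p of 0.77 by edgeR's quasi-likelihood test.

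Csf2rb2, the β chain that serves IL-3 alone in the mouse, was higher in B7hi than in B7low mast cells. With HDM it had 613, 419 and 434 CPM in B7hi, against 205, 297 and 245 CPM in B7low, and every B7hi library lay above every B7low library. The fold was 1.96 (log2 fold change 0.97 ± 0.25, edgeR adjusted p = 0.0449). It was the only gene of the 7 tested that was called for B7hi against B7low with HDM, where 2.84% of the 10533 genes tested were called and 0.693% were called higher, and the only one with ranges apart, as 20.5% of genes had. With saline it had 438 and 271 CPM in B7hi, against 282 and 273 CPM in B7low; 1 B7hi library was high and the other lay just below both B7low libraries. The saline difference was not called (log2 fold change 0.35 ± 0.31, edgeR adjusted p = 0.53).

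Averaged over both challenges, Csf2rb2 was 1.58-fold higher in B7hi (log2 fold change 0.66 ± 0.20, edgeR adjusted p = 0.0376), with means over 5 libraries of 435 ± 121 CPM in B7hi, against 260 ± 36.4 CPM in B7low. The difference between the HDM and the saline value was not called (log2 difference of the HDM effects 0.62 ± 0.39, edgeR adjusted p = 0.71). The edgeR call with HDM disappeared on leaving out B7hi HDM 1 (adjusted p = 0.153), B7hi HDM 2 (0.0944), B7hi HDM 3 (0.0671), B7low HDM 1 (0.231), B7low HDM 3 (0.125), B7hi saline 1 (0.0569) or B7low saline 1 (0.0587), and the averaged call when B7hi HDM 1 was left out (0.0743), B7hi HDM 2 (0.0564), B7low HDM 1 (0.0922), B7low HDM 3 (0.0766), B7hi saline 1 (0.267), B7low saline 1 (0.0828) or B7low saline 2 (0.088). Without both libraries that stood apart, the log2 fold changes were 1.05 with HDM and 0.69 on average, and neither was called (edgeR adjusted p = 0.084 and 0.104).

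Fitted as 1 feature, the sum of Csf2rb and Csf2rb2 was not called. Its log2 fold change for B7hi against B7low was 0.56 ± 0.25 with HDM (edgeR adjusted p = 0.333), 0.05 ± 0.31 with saline (0.946) and 0.31 ± 0.20 on average (0.367). The sum is unaffected by how shared reads were divided between the genes, though not by whether they were dropped or counted for both.

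Basophils also carry the IL-3 receptor. Their 6 markers, all with counts in every group, summed to 2955 to 5398 CPM in B7hi HDM, 2658 to 4282 CPM in B7low HDM, 3359 to 4947 CPM in B7hi saline and 2193 to 2816 CPM in B7low saline. Their defining protease gene Mcpt8 had 821 to 1552 CPM in B7hi HDM, 82.7 to 383 CPM in B7low HDM, 691 to 837 CPM in B7hi saline and 57.7 to 189 CPM in B7low saline, with no overlap between the populations. Ifitm1 was also higher in B7hi, at 681 to 1242 CPM, against 50.7 to 492 CPM in B7low. Itgb2 and Cd69 overlapped between the populations. Prss34 and Cd200r3 lay the other way. Prss34, another basophil protease gene, had 48.1, 11.7 and 25.3 CPM in B7hi HDM, 390.4, 548 and 528 CPM in B7low HDM, 2.27 and 8.35 CPM in B7hi saline, and 549 and 532 CPM in B7low saline. Cd200r3, a receptor gene, had 118 to 244 CPM in B7hi HDM, 315 to 481 CPM in B7low HDM, 31.7 to 57.4 CPM in B7hi saline and 468 to 497 CPM in B7low saline. The part of basophils, and of the lower summed mast cell marker level in B7hi, in the Csf2rb2 and Il5ra differences was not tested.

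The division of counts between the β chains separated the populations within each challenge. Csf2rb2 took 39.0%, 44.8% and 46.0% of the summed counts in B7hi HDM, against 27.2%, 37.4% and 30.9% in B7low HDM, and 41.5% and 41.0% in B7hi saline, against 33.2% and 35.4% in B7low saline. All 5 B7hi libraries lay above all 5 B7low libraries. The difference within challenges was 9.21 percentage points, made of 11.4 with HDM and 6.97 with saline, and stayed between 8.04 and 10.6 with any 1 library left out. This comparison of shares was chosen after the values were seen and is given with no test. The share follows the split of reads that match both genes, and its part in this difference was not tested.

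**Figure D2:**
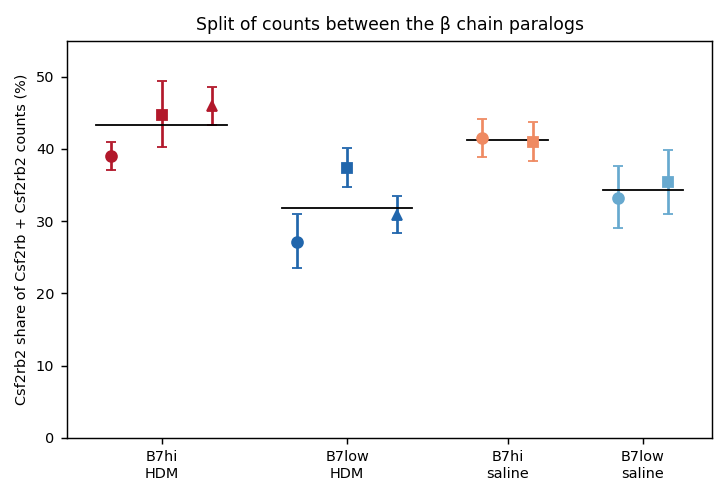
Share of Csf2rb2 in the summed counts of Csf2rb and Csf2rb2 (percent), 1 point per library with its exact (Clopper-Pearson) 95% binomial interval and a line at each group mean; circle, square and triangle are replicates 1, 2 and 3. B7hi libraries lie between 39.0% and 46.0% and B7low libraries between 27.2% and 37.4%. The intervals cover counting error within a library alone, not the spread between libraries. Those of B7low HDM 1 (23.5% to 31.1%) and B7low HDM 2 (34.7% to 40.2%) lie apart.

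Il5ra, the α chain that binds IL-5 (chr6:106710357-106749037, minus strand), was lower in B7hi than in B7low mast cells, apart from 1 library. With HDM it had 5.00, 48.9 and 4.11 CPM in B7hi (counts of 8, 25 and 6), against 48.8, 20.2 and 26.5 CPM in B7low (36, 31 and 42). With saline it had 7.56 and 7.31 CPM in B7hi (10 and 14), against 49.0 and 88.6 CPM in B7low (28 and 53). The saline groups lay well apart, and in the HDM groups only B7hi HDM 2, a library that stood apart, reached the B7low range.

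Averaged over both challenges, Il5ra was 4.27-fold lower in B7hi (log2 fold change -2.09 ± 0.62, edgeR adjusted p = 0.0459), with means over 5 libraries of 14.6 ± 19.3 CPM in B7hi, against 46.6 ± 26.8 CPM in B7low. With saline the log2 fold change was -3.20 ± 0.96 and just missed the threshold (edgeR adjusted p = 0.0704), and with HDM it was -0.99 ± 0.78 (adjusted p = 0.66). The interaction was not called (log2 difference 2.21 ± 1.23, edgeR adjusted p = 0.67). Averaged over challenges, Csf2rb2 and Il5ra were the 2 genes called of the 7 tested, 1 higher and 1 lower, against 11.9% called among all genes tested, 5.80% higher and 6.08% lower; neither had ranges apart over the 5 libraries of each population, as 9.40% of all genes had.

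The size of the Il5ra difference with HDM moved with single libraries. It was -0.42 without B7hi HDM 1, -0.38 without B7hi HDM 3 and -0.58 without B7low HDM 1, with no call. Without B7hi HDM 2, Il5ra was called in each comparison by edgeR, with a log2 fold change of -2.77 with HDM (adjusted p = 0.0201), -3.23 with saline (0.00314) and -3.0 on average (2.03e-04). Without both libraries that stood apart, the values were -2.76 with HDM (0.0174), -2.72 with saline (0.023) and -2.74 on average (7.9e-04), and the interaction was -0.04. The saline call was also gained without B7hi HDM 1 (0.0412) or B7hi HDM 3 (0.0348), and with DESeq2 (0.0081) or limma-voom (0.0163) in place of edgeR. On average the call disappeared on leaving out B7hi HDM 1 (0.060), B7hi HDM 3 (0.0603), B7low HDM 1 (0.0865), B7low HDM 2 (0.0588), B7low HDM 3 (0.0766), B7hi saline 1 (0.165), B7hi saline 2 (0.187), B7low saline 1 (0.0866) or B7low saline 2 (0.155), with the sign kept throughout.

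Of the genes that define eosinophils, the cells best known for Il5ra, Epx, Prg2, Ear1 and Ear6 had 0 counts in all 10 libraries. The summed level of the 7 eosinophil markers in the table was 3.13 to 11.7 CPM in B7hi HDM, 9.76 to 50.2 in B7low HDM, 19.6 to 20.4 in B7hi saline and 6.99 to 33.4 in B7low saline. Ccr3 had 3.13, 11.7 and 10.3 CPM in B7hi HDM and 5.42, 5.20 and 25.9 in B7low HDM. With saline it had 19.6 and 20.4 CPM in B7hi and 6.99 and 31.8 in B7low. Alox15 had 44.7 CPM in B7low HDM 1, 4.55 in B7low HDM 2 and 1.67 in B7low saline 2, and Ear2 had 0.632 CPM in B7low HDM 3, with no counts elsewhere. B cells, of which some kinds in mice carry the IL-5 receptor, had a summed marker level (6 markers, all with counts in B7low HDM) of 5.63 to 19.9 CPM in B7hi HDM, 79.6 to 595 in B7low HDM, 12.1 to 68.9 in B7hi saline and 19.2 to 40.1 in B7low saline. The part of eosinophils or B cells in the Il5ra values was not tested.

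**Figure D3:**
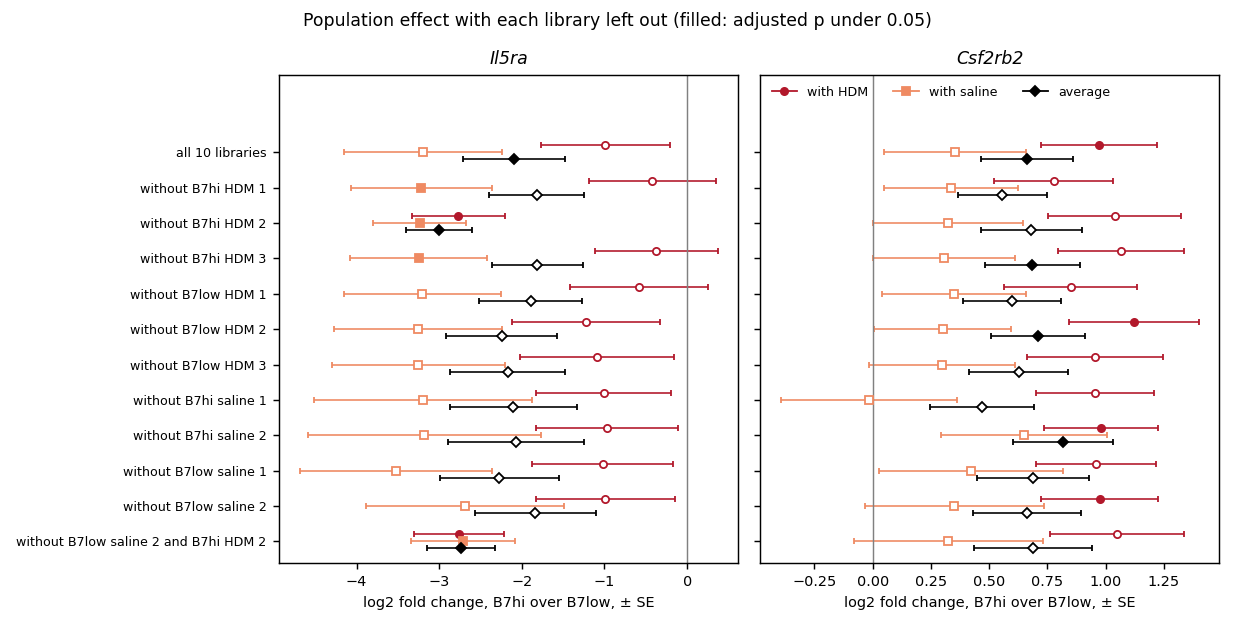
Log2 fold change ± SE of Il5ra and Csf2rb2 for B7hi over B7low from edgeR, with HDM (circles), with saline (squares) and averaged (diamonds), from all 10 libraries and with libraries left out; filled symbols have an adjusted p under 0.05. Without B7hi HDM 2 the Il5ra value with HDM is -2.77, against -0.99 from all libraries.

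Il3ra, the α chain that binds IL-3 (chr14:14346275-14356011, plus strand), showed no call between populations. Its level was 6.88, 5.87 and 6.16 CPM in B7hi HDM, 10.8, 6.50 and 14.5 CPM in B7low HDM, 21.2 and 9.40 CPM in B7hi saline, and 14.0 and 25.1 CPM in B7low saline. The 3 B7hi HDM libraries lay close together and low, and only B7low HDM 2 was near them. Their levels came from 11, 3 and 9 counts, too few for the closeness to be informative. Averaged over challenges, B7hi differed from B7low by a log2 fold change of -0.55 ± 0.46 (edgeR adjusted p = 0.49). The gene Gm48860 overlaps Il3ra on the opposite strand and is not among the symbols counted, so its reads cannot be told apart from those of Il3ra if strand was not used.

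Csf2ra, the α chain that binds GM-CSF (chr19:61223957-61228429, minus strand), was low and showed no call in any comparison. It had 5.00, 15.7 and 11 CPM in B7hi HDM, 8.13, 7.15 and 12.0 CPM in B7low HDM, 15.1 and 11 CPM in B7hi saline, and 3.5 and 11.7 CPM in B7low saline, from 2 to 21 counts a library. All groups overlapped, and the averaged population difference of 0.44 ± 0.53 on the log2 scale (edgeR adjusted p = 0.65) has an interval of -0.59 to 1.48. Markers of macrophages and monocytes, which carry much Csf2ra and Csf2rb, summed to 2.05 to 13.6 CPM over all libraries, and Fcgr1 had 0 counts in all 10.

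Il9r, which binds IL-9 (chr11:32187541-32200279, minus strand), had 20.0, 13.7 and 18.5 CPM in B7hi HDM, 24.4, 19.5 and 25.3 CPM in B7low HDM, 9.82 and 26.1 CPM in B7hi saline, and 12.2 and 15 CPM in B7low saline. The 2 B7hi saline libraries spanned the whole range of the others. No population difference was called, with a log2 fold change of 0.02 ± 0.37 on average (95% interval -0.70 to 0.74, edgeR adjusted p = 0.98).

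Il21r, which binds IL-21 (chr7:125603429-125633570, plus strand), had 12.5, 19.6 and 19.9 CPM in B7hi HDM, 10.8, 29.3 and 5.06 CPM in B7low HDM, 11.3 and 9.40 CPM in B7hi saline, and 5.25 and 3.34 CPM in B7low saline. Both B7hi saline libraries lay above both B7low saline libraries, whose levels came from 3 and 2 counts, while the HDM groups overlapped because of B7low HDM 2. The log2 fold change for B7hi against B7low was 1.25 ± 0.91 with saline (edgeR adjusted p = 0.46) and 0.16 ± 0.60 with HDM (0.94). B cells carry Il21r, and their summed markers were 595, 377 and 79.6 CPM in the B7low HDM libraries, the highest being in B7low HDM 1 and the highest Il21r in B7low HDM 2; their part in the Il21r level was not tested.

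Il2ra (chr2:11642807-11693193, plus strand) was at the limit of detection, with counts of 11, 4 and 0 in B7hi HDM, 2, 0 and 3 in B7low HDM, 5 and 4 in B7hi saline, and 2 and 3 in B7low saline. It did not pass the count filter and was not tested. Of the 4 markers of regulatory T cells, which are known for Il2ra, the defining gene Foxp3 had 0 counts in every library. The 4 summed to 299 to 397 CPM in B7hi HDM, 191 to 313 CPM in B7low HDM, 283 to 344 CPM in B7hi saline and 184 to 316 CPM in B7low saline, and most of each sum came from Ikzf2. Their part in the Il2ra level was not tested.

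**Figure D4:**
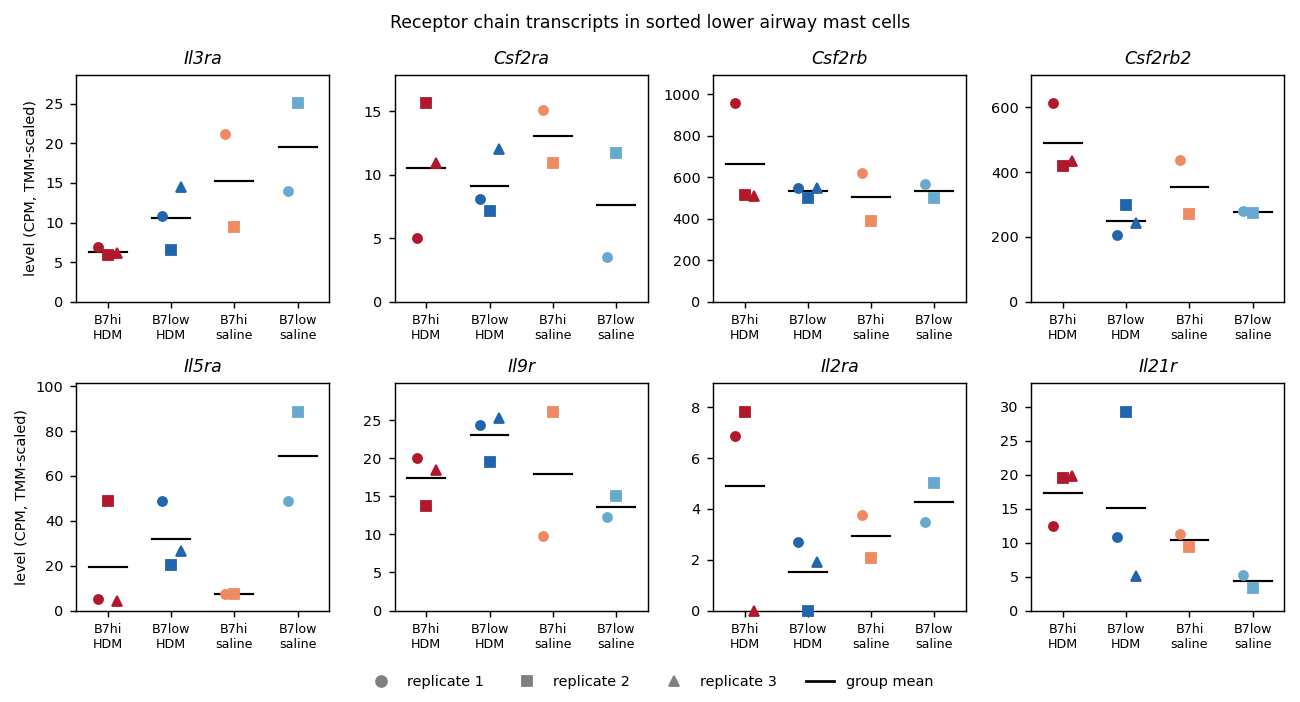
Level (CPM, TMM-scaled) of the 8 receptor chain genes in each of the 10 libraries by group, with a line at the group mean; circle, square and triangle are replicates 1, 2 and 3. Csf2rb2 lies between 419 and 613 CPM in B7hi HDM and between 205 and 297 CPM in B7low HDM, and Il5ra is low in every B7hi library except B7hi HDM 2 at 48.9 CPM.

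For B7hi against B7low with saline, edgeR called 0 of the 7 genes tested, against 6.54% of all genes tested. Il5ra alone had an unadjusted p under 0.05, as 21.2% of all genes had, and DESeq2 and limma-voom each called 1 gene, Il5ra. Ranges lay apart for Il5ra and Il21r, 2 of the 7, while 51.9% of all genes had such ranges with 2 libraries a group.

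HDM challenge, the question of the study's other axis, left no call among the receptor chains in either population. In B7hi, HDM against saline had 0 of 7 genes called (0.00949% of all genes), with 0 at an unadjusted p under 0.05 (4.13%). In B7low it had 0 of 7 (0.00949%), with Il21r alone at an unadjusted p under 0.05 (9.08%). Averaged over populations it had 0 of 7 (0.00949%), with Il3ra and Il21r at an unadjusted p under 0.05 (6.47%). The interaction had 0 of 7 (0.00% of all genes), with 0 at an unadjusted p under 0.05 (8.55%). Limma-voom called 0 of the 7 in each of these 4 comparisons. DESeq2 gave an adjusted p for 3 of the 7 in B7hi, 7 in B7low, 4 on average and 4 for the interaction, and called 0 of those.

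Il3ra had the lowest p of the averaged HDM comparison. It had 6.30 ± 0.516 CPM in B7hi HDM (n = 3), against 15.3 ± 8.32 CPM in B7hi saline (n = 2), and 10.6 ± 4.02 CPM in B7low HDM (n = 3), against 19.5 ± 7.85 CPM in B7low saline (n = 2). The B7hi ranges lay apart and the B7low ranges overlapped by 1 HDM library. The B7hi HDM levels came from 11, 3 and 9 counts, so their small SD leaves out much counting error. The averaged log2 fold change was -1.05 ± 0.45 (edgeR adjusted p = 0.70).

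Il21r had an HDM value of the other sign. Its mean was 17.3 ± 4.17 CPM in B7hi HDM, against 10.4 ± 1.37 CPM in B7hi saline, and 15.1 ± 12.6 CPM in B7low HDM, against 4.29 ± 1.34 CPM in B7low saline. The B7hi ranges lay apart, and in B7low 1 HDM library, at 5.06 CPM, lay within the saline range. The averaged log2 fold change was 1.27 ± 0.55 (edgeR adjusted p = 0.71).

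Ranges lay apart between HDM and saline for Il3ra and Il21r in B7hi (2 of 7, with 20.6% of all genes) and for Il5ra and Il9r in B7low (2 of 7, with 23.9%). The Il5ra gap in B7low was narrow, from 48.8 CPM in B7low HDM 1 to 49.0 CPM in B7low saline 1. Il9r in B7low was 23.1 ± 3.11 CPM with HDM and 13.6 ± 1.99 CPM with saline (log2 fold change 0.75 ± 0.56, edgeR adjusted p = 0.71).

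**Figure D5:**
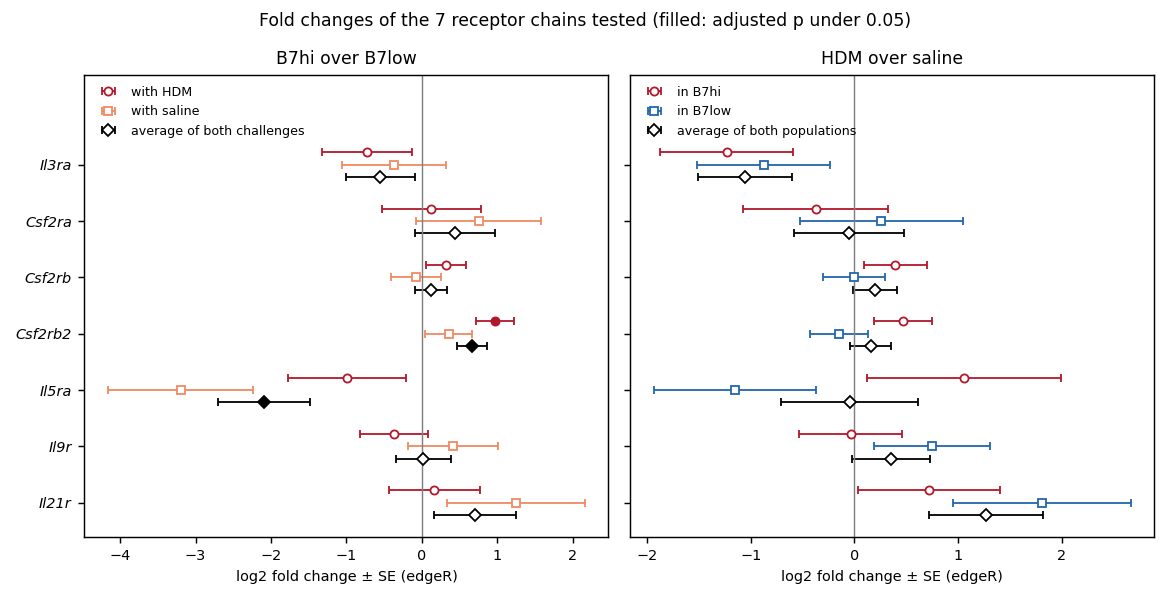
Log2 fold change ± SE from edgeR of the 7 receptor chain genes tested, B7hi over B7low (left) and HDM over saline (right), in each stratum and averaged; filled symbols have an adjusted p under 0.05. The filled symbols are Csf2rb2 with HDM (0.97) and on average (0.66), and Il5ra on average (-2.09).

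The ligands of these receptors were scarce in the mast cells themselves. Il3 had 15, 2 and 6 counts in B7hi HDM, 0, 1 and 9 in B7low HDM, 6 and 3 in B7hi saline, and 0 and 0 in B7low saline. Csf2 had at most 8 counts in a library, Il5 at most 3, Il9 at most 1 and Il21 at most 4. Only Il2 passed the count filter, and its averaged log2 fold change for B7hi against B7low was 1.53 ± 0.79 (edgeR adjusted p = 0.24).

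Of the partner chains, Il2rg, the common γ chain of the IL-2, IL-9 and IL-21 receptors, had 422 ± 17.4 CPM in B7hi HDM, 359 ± 53.0 CPM in B7low HDM, 547 ± 88.3 CPM in B7hi saline and 387 ± 72.7 CPM in B7low saline. Its averaged log2 fold change for B7hi against B7low was 0.36 ± 0.17 (edgeR adjusted p = 0.19). Il2rb, the β chain of the IL-2 receptor, had 73 counts in B7hi HDM 3 and 96 in B7hi saline 2, at most 2 in the other 3 B7hi libraries and 0 in all 5 B7low libraries. The same 2 libraries had the highest summed levels of T cell markers (155 CPM in B7hi HDM 3 and 192 in B7hi saline 2, with at most 62.6 elsewhere) and of natural killer cell markers (380 and 242 CPM, with at most 88.1 elsewhere), cells that carry Il2rb; their part in it was not tested. Of the 6 chains tested in the list of the γ chain and its relatives, edgeR called 0 in any comparison.

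In a general list of JAK and STAT genes, not all of them used by these receptors, calls fell on Stat3, Stat2 and Jak1. Jak2, the kinase of the β chains, had 60.2 ± 6.21 CPM in B7hi HDM, 59.4 ± 20.2 CPM in B7low HDM, 77.2 ± 16.9 CPM in B7hi saline and 63.8 ± 21.0 CPM in B7low saline. Stat5a and Stat5b, its main targets, had averaged log2 fold changes for B7hi against B7low of 0.65 ± 0.33 (edgeR adjusted p = 0.23) and -0.14 ± 0.23 (0.75). Of 11 JAK and STAT genes tested, 1 was higher and 1 lower in B7hi averaged over challenges: Stat3 (0.79 ± 0.22, edgeR adjusted p = 0.025) and Stat2 (-0.88 ± 0.27, 0.048), where 11.9% of all genes tested were called. With HDM, where 2.84% of all genes were called, 1 was higher and 1 lower, Jak1 (1.49 ± 0.35, edgeR adjusted p = 0.032) and Stat2 (-1.31 ± 0.33, 0.043). Jak1 had 2117, 832 and 677 CPM in B7hi HDM, against 389, 429 and 478 CPM in B7low HDM, and without B7hi HDM 1 its value was 0.81 and not called. The Jak1 call was also lost without B7low saline 1 or 2 or any 1 B7low HDM library (edgeR adjusted p up to 0.154). The Stat3 call was lost without B7hi saline 1, B7low saline 1, B7hi HDM 1, B7low HDM 1 or B7low HDM 2 (up to 0.168). The Stat2 call was lost on average without any library but B7low HDM 1 (up to 0.171), and with HDM without any library but the 2 B7low saline ones (up to 0.14).

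Among 16 brakes on this signalling tested, Cblb, a ubiquitin ligase, and Socs2, a STAT5-induced inhibitor, were called lower in B7hi on average. Averaged over challenges, 2 of 16 negative regulators tested were called, both lower, a share close to the 11.9% called among all genes tested, with a list median of -0.29 on the log2 scale and 0.03 over all genes tested. Cblb had 83.6 ± 23.0 CPM in B7hi HDM, against 166 ± 6.16 CPM in B7low HDM, and 81.6 ± 7.56 CPM in B7hi saline, against 201 ± 14.8 CPM in B7low saline (averaged log2 fold change -1.15 ± 0.19, edgeR adjusted p = 9.5e-04). Socs2 had 183 ± 54.6 CPM in B7hi HDM, against 314 ± 35.8 CPM in B7low HDM, and 176 ± 35.5 CPM in B7hi saline, against 414 ± 122 CPM in B7low saline (-1.01 ± 0.21, 0.0043). Both averaged calls held with each of the 10 libraries left out in turn. With HDM, Cblb was called (-0.99 ± 0.25, edgeR adjusted p = 0.039) and Socs2 was not (-0.79 ± 0.26, 0.146). The Cblb call with HDM was lost, among other cases, without B7hi HDM 2 or 3 or any 1 B7low HDM library. Cish, the STAT5-induced inhibitor most often used as a readout of the pathway, was not called on average (0.37 ± 0.33, edgeR adjusted p = 0.53).

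Of 12 adaptors and kinases tested, 1 was lower and 0 higher on average, where 6.08% of all genes were lower: Syk, a kinase shared with the IgE receptor, at -1.21 ± 0.20 (edgeR adjusted p = 6.4e-04), which held with each library left out. Of 17 STAT5 target genes tested, 2 were higher in B7hi on average and 3 lower, with a list median of -0.10; of all genes tested, 5.80% were higher and 6.08% lower. The protease gene Gzmb (2.10 ± 0.47, edgeR adjusted p = 0.019) and the kinase gene Pim1 (1.10 ± 0.33, 0.037) were higher, and Bcl2, which blocks cell death (-1.43 ± 0.39, 0.028), Ccnd1, a cyclin (-1.56 ± 0.38, 0.013), and Socs2 were lower. For Bcl2 the value was -2.52 ± 0.64 with saline (edgeR adjusted p = 0.029) and -0.33 ± 0.47 with HDM (0.83). The Bcl2 interaction was 2.19 ± 0.78 and not called (edgeR adjusted p = 0.47). Of the called targets, Socs2 alone kept its averaged call without each of the 10 libraries. Leaving out B7hi saline 1 ended the other 4 calls, and B7low saline 1 those of Gzmb, Bcl2 and Pim1. Those of Bcl2 and Pim1 were also lost without B7low HDM 1, that of Bcl2 without B7low saline 2 or B7hi HDM 3, and that of Pim1 without B7hi saline 2, B7hi HDM 1 or B7low HDM 2 (edgeR adjusted p up to 0.0908 for Gzmb, 0.143 for Pim1, 0.0958 for Bcl2 and 0.0755 for Ccnd1).

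Of 27 receptor genes of other cytokines tested, 2 were higher in B7hi and 8 lower averaged over challenges, and 17 were not called, against 5.80% higher and 6.08% lower among all genes, with a list median of -0.97 on the log2 scale and 0.03 over all genes tested; no test compared this list with the receptor chains above. Ifngr1, a chain of the interferon γ receptor (1.12 ± 0.20, edgeR adjusted p = 0.0016), was higher, as was Il1r2, the decoy receptor of IL-1, with 184, 84.2 and 168 CPM in B7hi HDM, 4.07, 14.3 and 63.2 CPM in B7low HDM, 185 and 116 CPM in B7hi saline and 0 counts in both B7low saline libraries (edgeR adjusted p = 0.011). The 8 lower were Il10rb (-2.05 ± 0.20), Il1rl1, the IL-33 receptor (-1.35 ± 0.19), Ifnar2 (-1.11 ± 0.21), Ifngr2 (-1.19 ± 0.30), Il18r1 (-1.49 ± 0.47), Tgfbr1 (-1.02 ± 0.21), Tgfbr2 (-0.97 ± 0.26) and Il6ra, with edgeR adjusted p from 4.7e-06 to 0.048. Il6ra had 0, 1.96 and 0 CPM in B7hi HDM, 25.8, 5.85 and 11.4 CPM in B7low HDM, 0.756 and 0 CPM in B7hi saline, and 10.5 and 5.02 CPM in B7low saline. Those of Il10rb, Il1rl1, Ifnar2, Il6ra, Tgfbr1 and Ifngr1 held without each of the 10 libraries, while those of Il1r2, Ifngr2, Il18r1 and Tgfbr2 were all lost without B7hi saline 1 or B7low saline 1 (adjusted p up to 0.0575, 0.0746, 0.196 and 0.146 over all libraries left out). Leaving out B7low saline 2 also ended the Il1r2 call, B7hi saline 2 the Ifngr2 and Il18r1 calls, B7low HDM 1 the Tgfbr2 and Il18r1 calls, and B7low HDM 2 or replicate 2 or 3 of B7hi HDM the Il18r1 call. With saline, 3 of these 27 receptor genes were called higher and 5 lower, with 6.54% of all genes called. With HDM only Il10rb was called, with 2.84% of all genes called. Il27ra was called with saline alone (2.15, edgeR adjusted p = 0.032). Il1rl1 was -2.04 with saline and -0.67 with HDM, a difference not called (edgeR adjusted p = 0.28). For HDM against saline, edgeR called 0 of the 86 listed genes tested in B7hi, in B7low and on average. An unadjusted p under 0.05 was found for 9, 11 and 10 of them, and for 4.13%, 9.08% and 6.47% of all genes. DESeq2 called 4, 1 and 3 of the 64, 79 and 70 to which it gave an adjusted p. Over all genes with an adjusted p, DESeq2 called 0.882%, 0.209% and 0.369%. Limma-voom called 0, 0 and 0 of the listed genes.

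The profile over the 10 libraries that came nearest to each receptor chain was sought among the other genes tested with a mean of at least 20 CPM, as the root mean square distance of centred log2 CPM. For Csf2rb the nearest were Pea15a at 0.14, Chtop at 0.17 and Sdcbp at 0.17, against a median distance of 0.53 over all candidates, and for Csf2rb2 they were Dnmbp at 0.19, Klhdc4 at 0.19 and Rpl37 at 0.20, against 0.60. For Il5ra they were Speer8-ps1 at 0.57, Pcdh7 at 0.58 and Zfp488 at 0.61, against 1.51. For Il9r they were Wipf2, Psmd3 and Itsn2 (0.12 to 0.24, against 0.59), for Il21r Odc1, Nme1 and Slc35a1 (0.35 to 0.38, against 0.83), for Il3ra Slc29a3, Zfyve16 and Shprh (0.26 to 0.30, against 0.79), and for Csf2ra Cenpq, Enpp4 and Cbl (0.22 to 0.26, against 0.68). The other β chain was not among the nearest 3 of either β chain. Low-count chains carry counting noise in their profiles, and the distances are descriptions with no test.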

How the data were processed

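Sorted mast cells were lysed directly and made into SmartSeq2 libraries, in which poly(A)+ mRNA is copied, amplified and cut by a transposase, and sequenced as pairs of 25 nt, per the labels' protocols. The authors deposited unnormalised counts for each gene symbol in 10 libraries. TopHat2 2.0.10, Cufflinks 2.2.1, DESeq2 and mm10 are named, without roles, per the submitters' processing notes. Neither the counter nor the annotation or strand setting it used is given in the sources used here. Groups and replicate numbers were read from the titles.

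Counts were scaled by TMM, filtered by filterByExpr (10533 genes kept) and modelled in edgeR 4.0.16 under R 4.3.3 by robust quasi-likelihood, with 1 mean per group over all 10 libraries. The 7 contrasts were tested two-sided, with Benjamini-Hochberg adjustment over all genes tested and a threshold of 0.05. The SE is approximate: the absolute log2 fold change divided by the root of the F statistic. Intervals are this SE times the normal quantile for 95%. The common biological coefficient of variation was 0.359. No replicates looked like 1 library deposited again, since chi-square over degrees of freedom was at least 6.54 for each pair in a group. The code was tested on simulated counts. Alternatives were DESeq2 1.42.0, limma-voom (limma 3.58.1), other scalings and filters, a replicate block, the summed β chains, only the groups compared, and libraries left out.

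Coordinates and transcripts are from GENCODE M21 on GRCm38, the assembly called mm10. Levels per kb use the transcript with the longest coding sequence. The genes named are the 8 receptor chains, the 3 nearest profiles of each chain tested (predicted gene models left out), the called members of each list with Jak2, Stat5a, Stat5b, Il2rg, Il2rb and Cish, and markers for their level. Lengths over the union of exons, fold changes of the summed β chains and the comparison of their shares were chosen after seeing the data. The receptor chains and the lists were chosen with earlier results of these data known.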

Additional observations from a re-analysis of the deposited data

How the results depend on the processing

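The 7 receptor chains tested gave 49 log2 fold changes, recomputed as 955 values under the alternatives. Of these, 851 kept their sign and their side of the threshold, 10 gained and 32 lost a call with the sign kept, and 62 changed sign, none of them called on either side. The number of chains called for B7hi against B7low on average was 2, and 1 with DESeq2 size factors, library size alone, limma-voom or without both libraries that stood apart, 0 with the β chains summed, and 0 to 1 with any 1 library left out. With HDM it was 1, and 0 with a 5 CPM filter (reached in 2 or more libraries) or the β chains summed, and 0 to 1 with 1 library left out. With saline it was 0, and 1 with DESeq2, limma-voom, no count filter, only the 2 groups compared or without both libraries, and 0 to 1 with 1 library left out. The cause was not tested. Library size alone moved the median log2 fold change of all genes for B7hi against B7low with saline to 0.30, against 0.03 by TMM, so the Csf2rb value of 0.19 there lies below that of most genes. Il2ra, tested under 5 alternatives, had 0 of 35 values called (lowest adjusted p = 0.66).

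Deviations of same-numbered libraries from their group means correlated at -0.15 to 0.20 over 13 pairs, 3 of them over 0.1. These values cannot decide whether B7hi and B7low libraries of the same number came from the same mice. Most pairs joined an HDM with a saline library. With 2 libraries a group, both saline pairs necessarily gave the same value, 0.023. With the replicate block edgeR called the same numbers of chains, and Csf2rb2 had 0.94 with HDM (adjusted p = 0.0441) and Il5ra -2.26 on average (0.0234). Values that changed sign under the block were Csf2rb for HDM against saline in B7low (0.073) and Il5ra for HDM averaged (0.30).

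Other values changed sign as follows, none of them called. For B7hi against B7low, Il9r averaged was -0.027 with DESeq2 size factors, -0.026 with DESeq2 and -0.0016 with limma-voom; Csf2rb with saline was 0.19 with library size alone, 0.025 without a filter and 0.047 with the β chains summed; Csf2ra with HDM was -0.014 with limma-voom and -0.23 without both libraries; and Il3ra with saline was 0.10 without both. For HDM against saline, Csf2rb in B7low was 0.13 with library size alone, 0.059 without a filter and 0.0063 with the 5 CPM filter. Il5ra averaged was 0.064 with DESeq2, and Il5ra in B7hi was -0.14 with limma-voom and -0.70 without both. Il9r in B7hi was 0.071 with limma-voom and 0.068 without both, and Csf2ra averaged was 0.32 without both. The interaction was 0.027 for Il3ra with limma-voom and -0.043 for Il5ra without both.

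With 1 library left out, the values that changed sign ran as follows. For B7hi against B7low with saline, Csf2rb2 ran from -0.016 to 0.65, Csf2rb from -0.44 to 0.21, Il3ra from -1.03 to 0.13 and Il9r from -0.48 to 0.95. With HDM, Csf2rb ran from -0.045 to 0.49, Csf2ra from -0.24 to 0.50 and Il21r from -0.28 to 1.16. On average, Csf2rb ran from -0.071 to 0.27 and Il9r from -0.42 to 0.28. For HDM against saline in B7hi, Il9r ran from -0.56 to 0.85, Csf2ra from -0.72 to 0.013 and Il5ra from -0.70 to 1.69. In B7low, Csf2rb ran from -0.083 to 0.13 and Csf2ra from -0.31 to 1.38. On average, Csf2ra ran from -0.36 to 0.49, Csf2rb2 from -0.00099 to 0.36 and Il5ra from -0.93 to 0.25. The interaction ran from -0.86 to 0.29 for Il3ra and from -1.33 to 0.12 for Il9r.

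Il2ra, Il21r, Csf2ra, Il3ra, Il9r and Il5ra had 0 to 53 counts a library, a depth at which small differences are not detectable. With 2 saline libraries a group, leaving 1 out leaves a lone sample, assumed to vary like the other groups.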
